A study of Mus musculus with 6 samples.

Results

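Genes of glucose uptake, glycolysis, lactate handling and glycogen metabolism were examined in the gastrocnemius of mice with and without a cachexia-inducing tumor. The 44 genes were given as a list of symbols that was drawn up with earlier results of these data known, and all 44 were found under their current symbol among the 13363 genes with deposited values. In C26 muscles, 9 of the 44 rose and 14 fell (limma adjusted p under 0.05), where 19.4% of all genes rose and 14.5% fell. The changes were divided by role: 5 of 8 genes of glycogen synthesis rose, whereas 5 of 8 genes of lower glycolysis and 3 of 6 genes of glycogen breakdown fell. These counts were 3, 1 and 2 without C26 replicate 1, 3, 1 and 1 without control replicate 1, and 4, 2 and 2 without C26 replicate 2 or control replicate 2. The plot of log2 fold changes by role shows all 44.

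The muscles came from Balb/c mice, which the methods describe as males bought at 6 weeks of age. The C26 group had been inoculated under the skin of the flank with colon-26 (C26) cells, a mouse colon adenocarcinoma line whose tumors cause wasting, and the Control group carried no tumor. Each group had 3 gastrocnemius muscles, and the deposited values are FPKM (fragments scaled by transcript length and by the number of mapped reads). All tumors came from the same cell line, no gene was altered in either group, and neither the interval to tissue collection for these 6 muscles nor their food intake was analysed here. Values below follow the order of replicates 1, 2 and 3.

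The values carry no read counts, and the depth per muscle is unknown. The FPKM of a C26 muscle summed to 531061 to 585169 and those of a control muscle to 626992 to 688300. Skeletal muscle genes were present in every sample, and their summed level over 12 fiber genes, in TPM (FPKM rescaled to the same sum in each muscle, then by TMM, a trimmed mean of log ratios), was 139840.0 to 236091 in the C26 muscles and 281049.5 to 303386 in the control muscles. Of these 12 genes, Pvalb, Mylpf and Tnnc2 fell and 0 rose, and all 3 calls were lost without C26 replicate 1 or control replicate 1 (limma adjusted p of up to 0.0768, 0.0645 and 0.0566 over the muscles left out), that of Pvalb also without control replicate 2 or 3. Of 8 slow fiber genes 0 changed by the test. Of 9 fat cell genes 6 fell, and the summed fat cell level was 493 to 701 in the C26 muscles and 794 to 6295 in the control muscles. Of 6 fibroblast genes 4 fell, of 8 endothelial genes 2 and of 7 Schwann cell genes 2. Of 5 immune genes (of 9 listed) and 4 epithelial genes (of 6 listed), 0 changed by the test. Single immune genes varied between muscles. Cd68 had 34.9, 247 and 6.46 FPKM in C26 and 4.75, 1.75 and 5.77 in control muscles (limma adjusted p = 0.0653). Ptprc had 40.1 FPKM in control replicate 3 and at most 0.81 in any other muscle. All 6 fat cell calls were lost without C26 replicate 1, C26 replicate 2 or control replicate 2 (limma adjusted p of up to 0.127), as were those of both endothelial genes (up to 0.139) and of 1 fibroblast gene, Lum (up to 0.109). The Schwann cell gene Pmp22 lost its call whichever muscle was left out, and S100b without control replicate 1 (up to 0.137 and 0.0627). C26 replicate 3 was the C26 muscle nearest to the controls for 12 of the 14 genes that fell here (85.7%), and for 59.8% of all genes that fell. It was the nearest for 4 of the 9 genes that rose here (44.4%), and for 71.8% of all genes that rose. In whole muscle, fewer cells of a type and less RNA per cell cannot be told apart.

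Muscle fibers take up glucose through transporters, trap it by phosphorylation and either split it in glycolysis to pyruvate and lactate or store it as glycogen. Glycogen is built from UDP-glucose by glycogen synthase on a glycogenin primer and is broken down by glycogen phosphorylase, which phosphorylase kinase switches on during contraction and adrenergic stimulation. Fast fibers, which dominate the mouse gastrocnemius, carry very high levels of glycolytic enzymes. Many steps have a muscle isoform and an isoform typical of other tissues.

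A gene was called changed at a limma Benjamini-Hochberg adjusted p under 0.05 over all 13363 genes, and log2 fold changes are on the scale of log2(TPM + 1), which understates the change of low genes. The genes that rose made up 20.5% of the 44, close to the share of all genes, and those that fell made up 31.8%. The median log2 fold change of the 44 was -0.33, beside -0.05 for all genes. At a 2-fold change or more, 7 of the 44 rose and 13 fell, beside 10.2% and 7.36% of all genes. The groups did not overlap for 10 genes that lay higher in C26 and for 17 that lay lower, beside 27.0% and 26.5% of all genes. With FPKM as deposited, 8 of the 44 rose and 18 fell, while over all genes the calls moved from 2589 higher and 1932 lower to 1678 higher and 2504 lower.

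These counts depended on single muscles. Without C26 replicate 1, 5 genes rose and 5 fell, beside 1127 and 669 of all genes. Without control replicate 1, 4 rose and 5 fell, beside 1151 and 726. Without C26 replicate 2 or control replicate 2, 7 rose and 9 fell in both cases, beside 1528 and 946 of all genes for the former and 2004 and 1402 for the latter. Leaving out C26 replicate 3 gave 10 and 19, beside 3311 and 2160. In these fits the calls over all genes moved in the same direction as those of the 44. Leaving out control replicate 3 gave 8 and 13, beside 2230 and 1959. There the genes that fell became fewer among the 44 (from 14) but more over all genes (from 1932). The 7 genes called in all 6 fits with a muscle left out and under every other setting tried were these. Ugp2, Gyg and Slc16a1 rose, and Pgm1, Pgam2, Pfkl and Pygb fell.

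**Figure D1:**
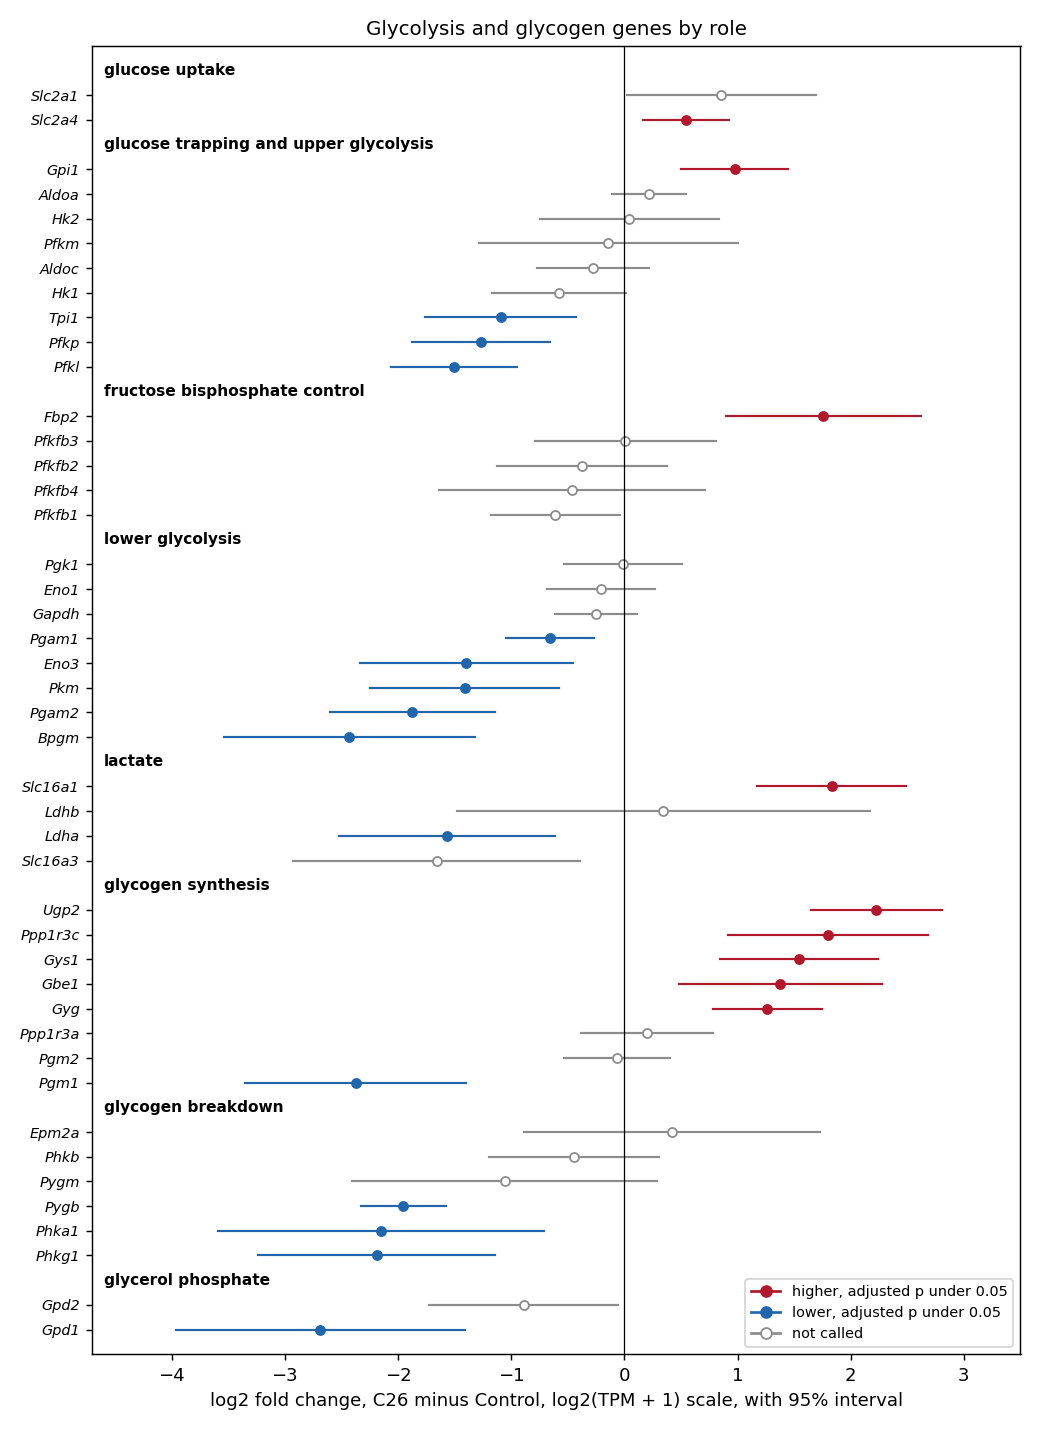
Log2 fold change of each of the 44 genes (C26 minus Control, log2(TPM + 1) scale) with its 95% interval from limma, grouped by role, with filled red points for genes that rose, filled blue points for genes that fell and open gray points for genes not called. Glycogen synthesis holds 5 red points and lower glycolysis 5 blue ones.

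Glycogen synthesis was the role in which the most genes rose. Ugp2, which makes UDP-glucose from glucose 1-phosphate, had 928, 678 and 704 FPKM in C26 muscles and 190.3, 228 and 155 in control muscles. Every C26 value was thus well above every control value, with a log2 fold change of 2.23 (SE 0.24, limma adjusted p = 0.00309). Gyg, the glycogenin that primes the glycogen particle, had 476, 448 and 361 FPKM in C26 and 217, 231 and 172 in control muscles, again without overlap, and a log2 fold change of 1.26 (SE 0.20, limma adjusted p = 0.00754). Gys1, the muscle glycogen synthase, had 204, 159 and 165 FPKM in C26 and 73.7, 91.2 and 49.5 in control muscles. It rose, with a log2 fold change of 1.54 (SE 0.29, limma adjusted p = 0.0114).

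The glycogen branching enzyme Gbe1 was expressed at a lower level, with 15.1, 15.7 and 29.2 FPKM in C26 and 10.1, 9.49 and 5.51 in control muscles and a log2 fold change of 1.38 (SE 0.37, limma adjusted p = 0.0322). Ppp1r3c, a glycogen-targeting subunit of protein phosphatase 1 that favors synthesis, had 138, 311 and 172 FPKM in C26 and 48.6, 88.5 and 62.5 in control muscles. C26 replicate 2 was highest, the groups did not overlap, and the log2 fold change of 1.80 (SE 0.37, limma adjusted p = 0.0142) passed. Ppp1r3a, the targeting subunit typical of muscle, was not called, with 38.7, 37.5 and 47.4 FPKM in C26 and 44.8, 48.2 and 32.7 in control muscles and a 95% interval of the log2 fold change of -0.38 to 0.78. The call for Gbe1 was lost when any of 5 of the 6 muscles was left out, with limma adjusted p of 0.0654 without C26 replicate 1, 0.0586 without C26 replicate 2, 0.0725 without control replicate 1, 0.0509 without control replicate 2 and 0.0624 without control replicate 3. With quantile normalization the log2 fold change of Gbe1 in limma was 1.2 (adjusted p = 0.0688). The limma adjusted p of Gys1 was 0.0508 without C26 replicate 1, and that of Ppp1r3c 0.0557 without control replicate 1.

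Against these 5 genes, Pgm1 fell. Phosphoglucomutase, which it encodes, converts glucose 6-phosphate and glucose 1-phosphate into each other and so serves both synthesis and breakdown. Pgm1 (Entrez gene ID 72157, which has also carried the symbol Pgm2) had 110.2, 60.0 and 169.9 FPKM in C26 and 665, 677 and 552 in control muscles. The highest C26 value was less than the lowest control value by a wide margin, with a log2 fold change of -2.37 (SE 0.41, limma adjusted p = 0.00882). Its relative now called Pgm2 (Entrez gene ID 66681, earlier Pgm1) was near 1 FPKM throughout, with 1.09, 0.88 and 1.19 FPKM in C26 and 1.44, 0.84 and 1.78 in control muscles, and was not called (95% interval -0.53 to 0.40). Because these symbols have been exchanged, the Entrez ID tells the genes apart.

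Ugp2 and Pgm1 act on either side of glucose 1-phosphate, and the ratio of their FPKM within a muscle does not depend on scaling between muscles. It was 8.42, 11.3 and 4.14 in C26 muscles and 0.286, 0.337 and 0.281 in control muscles. In every C26 muscle the Ugp2 value exceeded that of Pgm1, and in every control muscle the reverse held. The pair was chosen after its values were seen, so no test is given.

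On the breakdown side, 3 genes fell and 0 rose. Phosphorylase kinase consists of a catalytic gamma, regulatory alpha and beta, and calmodulin delta subunits. Phkg1, the muscle gamma subunit, had 52.6, 24.1 and 77.6 FPKM in C26 and 264, 248 and 230.4 in control muscles, without overlap, and a log2 fold change of -2.19 (SE 0.44, limma adjusted p = 0.0133). Phka1, the muscle alpha subunit, had 13.7, 8.92 and 44.3 FPKM in C26 muscles, where replicate 3 was highest, and 107, 106 and 71.8 in control muscles. Its change was a log2 fold change of -2.15 (SE 0.60, limma adjusted p = 0.0352). The beta subunit gene Phkb was not called, with 71.2, 42.8 and 83.5 FPKM in C26 and 108, 110.3 and 85.0 in control muscles and a 95% interval of -1.20 to 0.31.

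Pygb, the brain isoform of glycogen phosphorylase, had the smallest adjusted p of the 44. It was at 1.02, 0.96 and 0.74 FPKM in C26 and 7.25, 5.07 and 5.60 in control muscles, with a log2 fold change of -1.95 (SE 0.16, limma adjusted p = 0.00172). Pygm, the muscle phosphorylase, had 5.61, 3.30 and 15.4 FPKM in C26 and 12.1, 15.5 and 25.4 in control muscles, the groups overlapped, and its log2 fold change of -1.06 was not called (limma adjusted p = 0.183, 95% interval -2.40 to 0.29). C26 replicate 3 alone lay within the control range, and without it the log2 fold change of Pygm in limma was -1.59 (adjusted p = 0.0223). Epm2a, the glycogen phosphatase laforin, was not called either (95% interval -0.89 to 1.73). The limma adjusted p of Phkg1 was 0.0531 without control replicate 1, and that of Phka1 0.117 without C26 replicate 1, 0.0905 without C26 replicate 2, 0.106 without control replicate 1 and 0.0927 without control replicate 2.

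In glucose uptake, 1 of 2 genes rose, and in upper glycolysis 1 of 9 rose and 3 fell. Slc2a4, the insulin-responsive transporter GLUT4, had 322, 356 and 287 FPKM in C26 and 278, 261 and 228 in control muscles, and rose, with a log2 fold change of 0.54 (SE 0.16, limma adjusted p = 0.041). This call was lost when any of 5 of the 6 muscles was left out, with limma adjusted p of 0.119 without C26 replicate 1, 0.121 without C26 replicate 2, 0.0953 without control replicate 1, 0.0536 without control replicate 2 and 0.0655 without control replicate 3. It was also lost under 6 of the 8 other settings tried. Slc2a1, the basal transporter GLUT1, had 7.19, 11.5 and 4.75 FPKM in C26 and 3.68, 3.15 and 7.36 in control muscles and was not called (limma adjusted p = 0.0995). Without control replicate 3, its log2 fold change in limma was 1.14 (adjusted p = 0.0426), and without C26 replicate 3 it was 1.19 (adjusted p = 0.045).

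Neither hexokinase, which traps glucose as glucose 6-phosphate, was called. Hk2, the isoform typical of muscle, had 29.2, 41.5 and 60.1 FPKM in C26 and 50.7, 54.6 and 37.6 in control muscles, with a 95% interval of the log2 fold change of -0.75 to 0.84. Hk1 was less abundant than Hk2, with 1.81, 2.04 and 1.78 FPKM in C26 and 3.68, 2.17 and 5.55 in control muscles (limma adjusted p = 0.111), and without control replicate 2 its log2 fold change in limma was -0.82 (adjusted p = 0.0367). Gpi1, the isomerase of the next step, rose instead, with 1211, 1305 and 774 FPKM in C26 and 640.4, 623 and 634 in control muscles and a log2 fold change of 0.97 (SE 0.20, limma adjusted p = 0.0138). The limma adjusted p of Gpi1 was 0.0593 without C26 replicate 1 and 0.0558 without control replicate 1, and with quantile normalization its log2 fold change was 0.74 (adjusted p = 0.0807). For Gpi1, 18.6% of the 50-base windows of its transcripts, the length of the reads, also occurred in transcripts of other genes, mostly Gm1840, so its level is uncertain where the authors' counting could split such reads.

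Phosphofructokinase commits the sugar to glycolysis. Its muscle isoform Pfkm was far more abundant than the liver and platelet isoforms and was not called, with 1498, 552 and 1670.2 FPKM in C26 and 1547, 1668 and 1124 in control muscles. C26 replicate 2 was the lowest and the other C26 muscles lay within the control range or just above it. Pfkl, the liver isoform, had 2.21, 2.42 and 2.35 FPKM in C26 and 7.70, 11.7 and 7.67 in control muscles, and fell, with a log2 fold change of -1.50 (SE 0.23, limma adjusted p = 0.00693). Pfkp, the platelet isoform, had 1.05, 1.47 and 0.98 FPKM in C26 and 3.40, 3.03 and 6.72 in control muscles, with a log2 fold change of -1.27 (SE 0.25, limma adjusted p = 0.0134), and its limma adjusted p was 0.0566 without C26 replicate 1. Pfkl, Pfkp and Pygb are also expressed in non-muscle cells, whose summed marker levels in TPM were 272 to 377 in the C26 muscles and 514 to 634 in the control muscles for 6 fibroblast genes and 137 to 146 in the C26 muscles and 149 to 213 in the control muscles for 8 endothelial genes. Their part in these changes was not tested.

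Fbp2, the muscle fructose bisphosphatase that works against phosphofructokinase, rose. It had 277, 135 and 99.1 FPKM in C26 and 56.3, 53.4 and 48.6 in control muscles, so that C26 replicate 1 was highest and the lowest C26 value was still above the control range, with a log2 fold change of 1.76 (SE 0.36, limma adjusted p = 0.014). Its limma adjusted p was 0.0529 without control replicate 1. The FPKM of Fbp2 divided by that of Pfkm was 0.185, 0.245 and 0.0593 in C26 muscles and 0.0364, 0.032 and 0.0433 in control muscles, a ratio chosen after the values were seen. The 4 genes of the bifunctional enzyme that makes and degrades an activator of phosphofructokinase were not called. Pfkfb1 had 18.2, 16.4 and 27.3 FPKM in C26 and 36.4, 35.1 and 36.7 in control muscles (limma adjusted p = 0.089), and with FPKM as deposited its log2 fold change in limma was -0.81 (adjusted p = 0.0284). Without C26 replicate 3, the log2 fold changes of Pfkfb1 and Pfkfb2 in limma were -0.78 (adjusted p = 0.00933) and -0.66 (adjusted p = 0.0215). With all muscles, Pfkfb2, Pfkfb3 and Pfkfb4 had log2 fold changes of -0.38, 0.01 and -0.47, and their groups overlapped.

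Aldoa, the muscle aldolase, was the most abundant of the 44 and took 3.56% to 3.78% of the FPKM of a C26 muscle and 2.97% to 3.24% of those of a control muscle. Its FPKM were 19968, 20471 and 20834 in C26 and 19439, 20326 and 21514 in control muscles, and it was not called (log2 fold change 0.22, limma adjusted p = 0.25). With quantile normalization its log2 fold change in limma was 1.0 (adjusted p = 0.0104). Aldoc, the brain aldolase, was below 1 FPKM in all samples and was not called. Tpi1, the triose phosphate isomerase, had 699.8, 465 and 803 FPKM in C26 and 1796, 1649 and 1343 in control muscles and fell without overlap, with a log2 fold change of -1.09 (SE 0.28, limma adjusted p = 0.0267). Its limma adjusted p was 0.075 without C26 replicate 1, 0.0589 without C26 replicate 2, 0.0925 without control replicate 1 and 0.0751 without control replicate 2.

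Lower glycolysis, from glyceraldehyde phosphate to pyruvate, held 5 genes that fell and 0 that rose. Pgam2, the muscle phosphoglycerate mutase, had 725, 640.1 and 1293 FPKM in C26 and 3542, 3261 and 4003 in control muscles. No C26 value came near the control range, and the log2 fold change of -1.87 (SE 0.30, limma adjusted p = 0.00782) held whichever of the 6 muscles was left out. Pgam1, the more widely expressed mutase, had 13.2, 13.6 and 13.1 FPKM in C26 and 22.3, 27.4 and 24.7 in control muscles and a smaller log2 fold change of -0.66 (SE 0.16, limma adjusted p = 0.0245). Bpgm, which makes bisphosphoglycerate and belongs to the same enzyme family, had 6.77, 6.25 and 20.4 FPKM in C26 and 71.6, 59.2 and 58.9 in control muscles, with C26 replicate 3 the highest of its group, and fell, with a log2 fold change of -2.43 (SE 0.46, limma adjusted p = 0.0117).

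Bpgm is abundant in red blood cells, and the red blood cell genes moved the other way. All 6 of the red blood cell genes analysed rose, of 11 on the list, and their summed level in TPM was 1713 to 3718 in the C26 muscles and 720.0 to 1169.5 in the control muscles. The call of Alas2 held whichever muscle was left out, and those of the 5 globin genes were all lost without C26 replicate 1. Of these, Hbb-bs was also lost without C26 replicate 2 or control replicate 1, and Hba-a1, Hba-a2 and Hbb-b2 when any single control replicate was left out (limma adjusted p of up to 0.0847 over the 5 genes). Within the alpha type (Hba) and the beta type (Hbb), the globin genes are close copies, so their separate values are uncertain. Alas2, which makes heme in erythroid cells, had 4.43, 3.60 and 8.18 FPKM in C26 and 1.80, 1.47 and 1.06 in control muscles. The part of red blood cells in the values of Bpgm was not tested.

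Eno3, the muscle enolase, had 1439, 966 and 2695 FPKM in C26 and 4908, 4606 and 4742 in control muscles and fell, with a log2 fold change of -1.40 (SE 0.39, limma adjusted p = 0.0355). Pkm, the pyruvate kinase of muscle, had 681, 514 and 1206 FPKM in C26 and 2376, 2412 and 2177 in control muscles, with a log2 fold change of -1.41 (SE 0.35, limma adjusted p = 0.0242). For both genes C26 replicate 3 was nearest to the controls but below all of them. The FPKM of Pkm divided by that of Aldoa, a ratio chosen after the values were seen, was 0.0341, 0.0251 and 0.0579 in C26 and 0.122, 0.119 and 0.101 in control muscles. The limma adjusted p of Eno3 was 0.113 without C26 replicate 1, 0.0756 without C26 replicate 2, 0.101 without control replicate 1, 0.088 without control replicate 2 and 0.0634 without control replicate 3. That of Pkm was 0.0875 without C26 replicate 1, 0.0602 without C26 replicate 2, 0.0778 without control replicate 1 and 0.0693 without control replicate 2. For Pgam1 it was 0.0878 without C26 replicate 1, 0.0761 without C26 replicate 2, 0.0524 without control replicate 1 and 0.0548 without control replicate 2, and for Bpgm 0.0501 without C26 replicate 1 and 0.0504 without control replicate 1.

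Gapdh, Pgk1 and Eno1 were not called. Gapdh, often used as a reference gene, had 8399, 7569 and 9115 FPKM in C26 and 11397, 10839 and 12411 in control muscles. Its direction depended on the scaling, with a log2 fold change in limma of -0.25 (adjusted p = 0.234) with TMM, -0.47 (adjusted p = 0.0349) with FPKM as deposited and 0.61 (adjusted p = 0.0136) with quantile normalization. Pgk1, the phosphoglycerate kinase, had a 95% interval of -0.53 to 0.51. Eno1 was listed at only 0.18, 0.4 and 0.09 FPKM in C26 and 0.61, 0.26 and 0.31 in control muscles. Of the 50-base windows of their transcripts, 58.4% for Gapdh, 68% for Pgk1, 49.5% for Eno1 and 41.5% for Pgam1 also occurred in transcripts of other genes, above all in Gm7336, Pgk1-rs7, Eno1b and Pgam1-ps2. The levels of these 4 genes are uncertain in the same way. For Pgam2, Bpgm and Eno3 this share was 0, and for Pkm, Tpi1 and Ldha it was 23.7%, 6.83% and 10.4%.

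**Figure D2:**
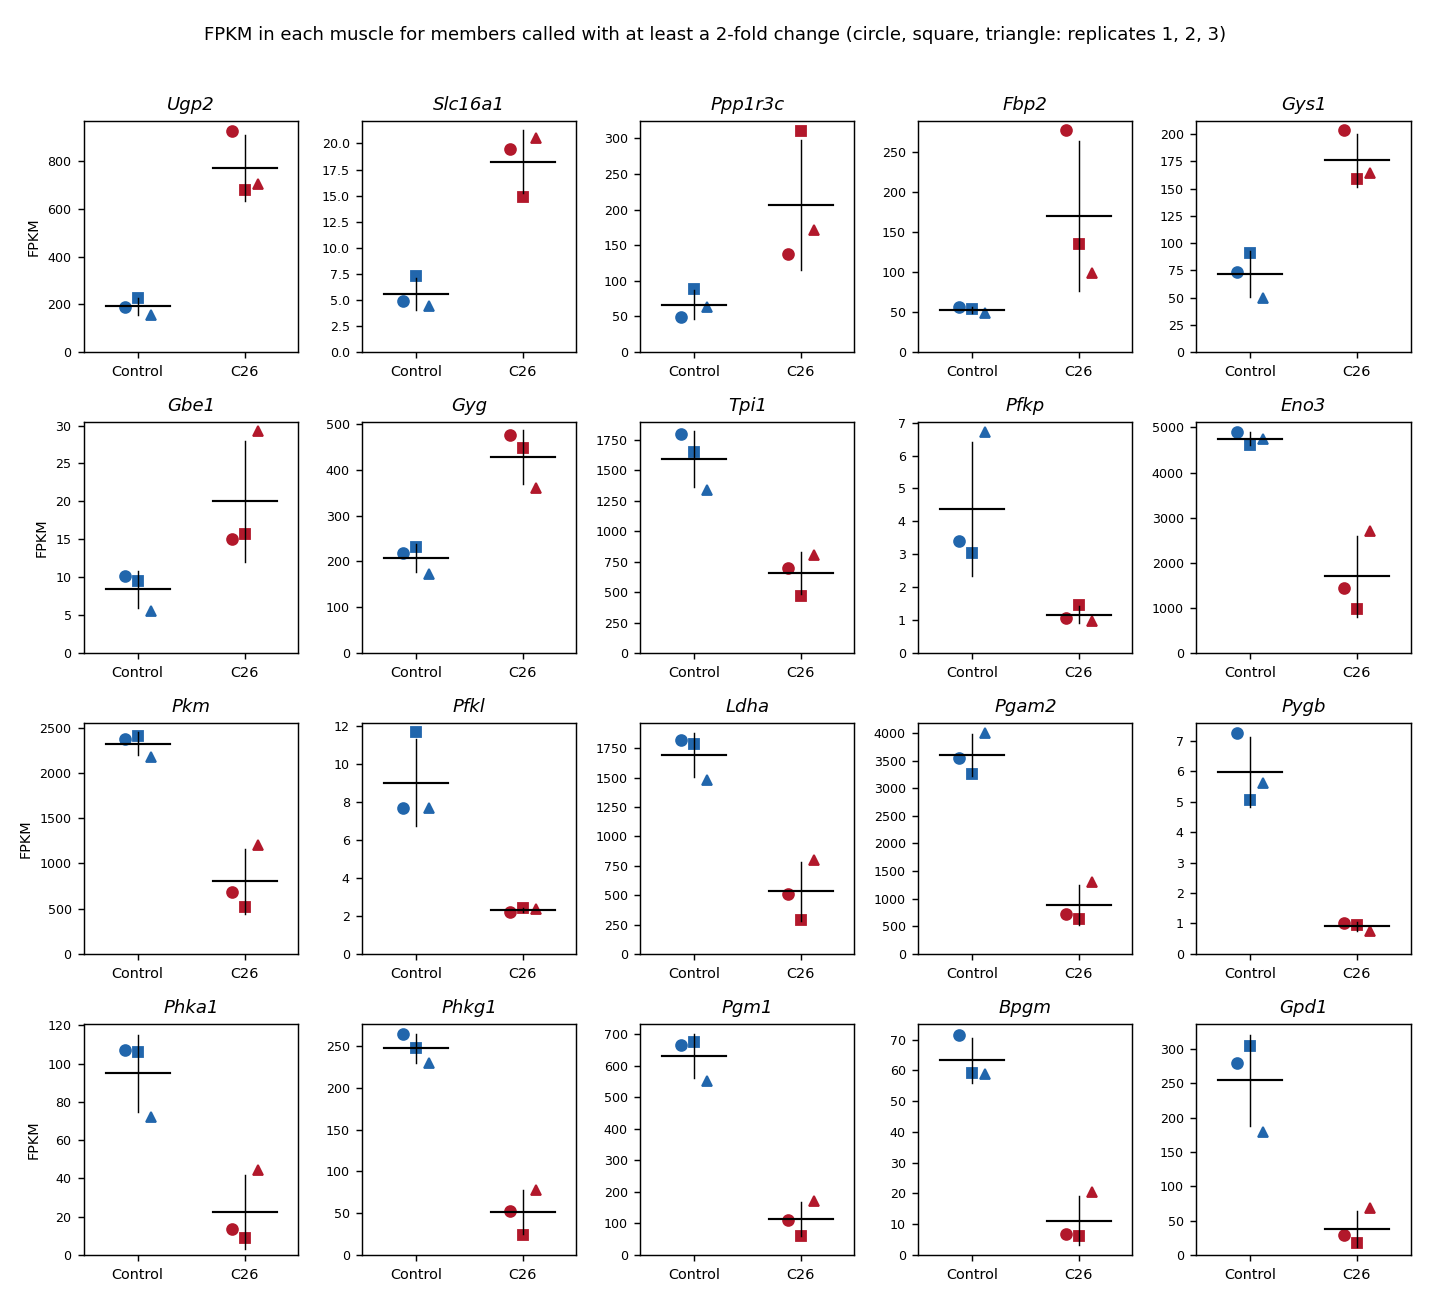
FPKM in each muscle for the 20 genes called with at least a 2-fold change, with 1 panel per gene, linear axes from 0, blue points for control muscles and red points for C26 muscles. Horizontal lines are means and vertical lines 1 SD of 3 muscles. In all 20 panels the groups do not overlap, but the genes were chosen by their calls in these same values, so this adds no support.

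In lactate handling, Ldha fell and Slc16a1 rose. Ldha, the lactate dehydrogenase subunit that prevails in fast fibers, had 508, 291 and 797 FPKM in C26 and 1816, 1790.0 and 1478 in control muscles, and fell, with a log2 fold change of -1.57 (SE 0.40, limma adjusted p = 0.0266). Ldhb, the subunit typical of heart and oxidative fibers, had 54.2, 33.3 and 152 FPKM in C26 and 34.2, 138 and 44.5 in control muscles, and was not called. Slc16a1, the lactate transporter MCT1, had 19.4, 14.8 and 20.5 FPKM in C26 and 4.87, 7.33 and 4.45 in control muscles, without overlap, and a log2 fold change of 1.83 (SE 0.27, limma adjusted p = 0.00645) that held whichever of the 6 muscles was left out. Slc16a3, the transporter MCT4 of glycolytic fibers, had 30.9, 26.8 and 104 FPKM in C26 and 175, 154 and 163 in control muscles. Its log2 fold change of -1.66 missed the threshold (limma adjusted p = 0.0521), but it was called lower under 6 of the 8 other settings with all muscles, at adjusted p of 0.033 to 0.0494. C26 replicate 3 was far above the other C26 muscles. Without that muscle it was -2.23 (adjusted p = 0.00122) in limma, and over all settings and left-out muscles the adjusted p of Slc16a3 lay between 0.00122 and 0.16. The limma adjusted p of Ldha was 0.0827 without C26 replicate 1, 0.0858 without control replicate 1 and 0.074 without control replicate 2.

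The glycerol phosphate shuttle passes reducing power from glycolysis to the mitochondria. Gpd1, its cytosolic dehydrogenase, had 28.5, 18.0 and 67.8 FPKM in C26 and 279.7, 305 and 179 in control muscles, and fell, with a log2 fold change of -2.69 (SE 0.53, limma adjusted p = 0.013), the largest decrease of the 44. Its limma adjusted p was 0.0546 without C26 replicate 1 and 0.0531 without control replicate 1. Gpd1 is also abundant in fat cells, whose 9 analysed genes (of 11 listed) included 6 that fell. Their part in the values of Gpd1 was not tested. Gpd2, the mitochondrial dehydrogenase, had 23.0, 16.3 and 37.3 FPKM in C26 and 51.2, 60.3 and 46.5 in control muscles and was not called (limma adjusted p = 0.0906), although with FPKM as deposited its log2 fold change in limma was -1.09 (adjusted p = 0.0384) and without C26 replicate 3 it was -1.15 (adjusted p = 0.0176).

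Levels were also summed over the members of each role. Lower glycolysis summed to 17308 to 28151 in the C26 muscles and 34307 to 36910.1 in the control muscles, in TPM. Glycogen breakdown summed to 146 to 443 in the C26 muscles and 609 to 841 in the control muscles, and glycogen synthesis to 2926 to 3386 in the C26 muscles and 1489.8 to 2326 in the control muscles. None of these ranges overlapped between the groups. A sum is weighted toward its most abundant members. In lower glycolysis the most abundant was Gapdh, which was not called, at mean FPKM of 11549 in control and 8361 in C26 muscles. Glucose uptake was mostly Slc2a4 (mean 321.5 FPKM in C26 muscles, beside 7.82 for Slc2a1). In fructose bisphosphate control only Fbp2 was called, and its mean was 52.8 FPKM in control and 170.4 in C26 muscles. All 44 genes together took 6.59% to 7.28% of the FPKM of a C26 muscle and 7.6% to 8.12% of those of a control muscle, whereas without Aldoa and Gapdh the shares were 1.42% to 2.16% and 2.67% to 3.15%.

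**Figure D3:**
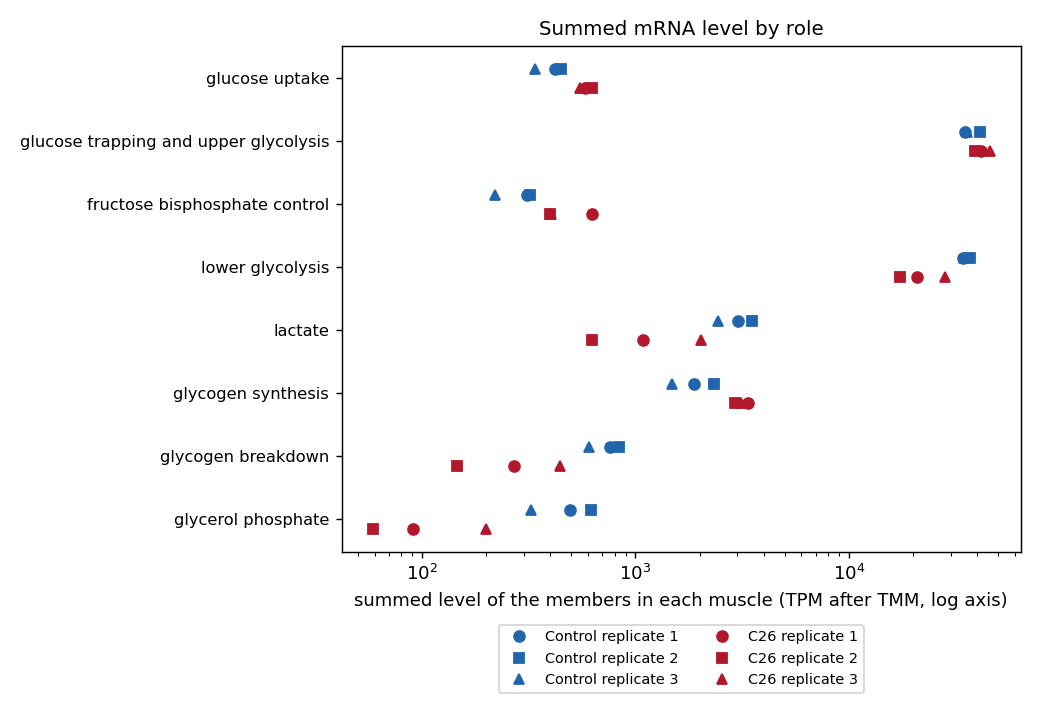
Summed level of the members of each role in each muscle (TPM after TMM, log axis), with blue points for control and red points for C26 muscles and marker shapes for replicates. Lower glycolysis, lactate, glycogen breakdown and glycerol phosphate lie lower in every C26 muscle than in every control muscle. Glucose uptake, fructose bisphosphate control and glycogen synthesis lie higher, while upper glycolysis overlaps. Each sum is weighted toward its most abundant members, such as Gapdh in lower glycolysis and Slc2a4 in glucose uptake.

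Isoforms and partner enzymes were compared by their FPKM ratio within each muscle. For 14 pairs, the log2 ratio did not overlap between the groups in 7, of which 6 were higher and 1 was lower in C26 muscles. The largest difference was in the lactate transporters. The log2 ratio of Slc16a1 to Slc16a3 was -0.67, -0.85 and -2.35 in C26 and -5.17, -4.39 and -5.19 in control muscles, a difference of 3.63. For Ldhb to Ldha it was -3.23, -3.13 and -2.39 in C26 and -5.73, -3.70 and -5.05 in control muscles, so all C26 values were above the highest control value. The ratios of Pgm2 to Pgm1, Gpd2 to Gpd1, Ppp1r3c to Ppp1r3a and Pgam1 to Pgam2 differed by 2.29, 1.8, 1.6 and 1.19. That of Pfkl to Pfkm was lower by a log2 difference of -1.57. Each of these 7 had p = 0.1 in a two-sided exact permutation test, the smallest p that 3 muscles against 3 allow, and an adjusted p of 0.2 over the 14 pairs. The other 7 pairs overlapped, among them Hk1 to Hk2 and Slc2a1 to Slc2a4.

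**Figure D4:**
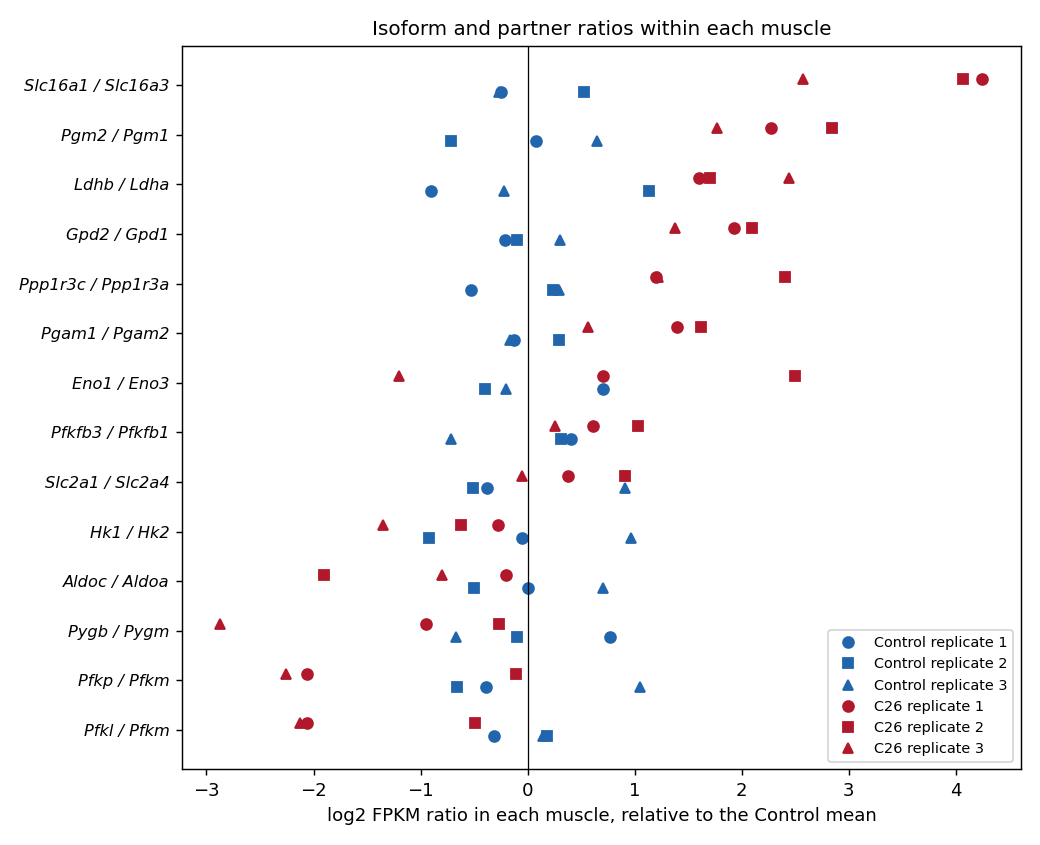
Log2 FPKM ratio of each pair of genes in each muscle, set to 0 at the mean of the 3 control muscles, with blue points for control and red points for C26 muscles and marker shapes for replicates. Red and blue points do not overlap for the 6 pairs at the top and for Pfkl to Pfkm at the bottom.

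Among 21 further genes of glycolysis and lactate (of 28 listed), 1 rose and 4 fell. Slc37a4, which carries phosphorylated glucose into the endoplasmic reticulum, had 10.5, 9.66 and 22.3 FPKM in C26 and 115, 99.5 and 95.1 in control muscles, with a log2 fold change of -2.70 (SE 0.35, limma adjusted p = 0.00479). Galm, a galactose mutarotase, and Slc16a7, the lactate transporter MCT2, fell with log2 fold changes of -0.98 and -0.71, both at low FPKM. Each of these 2 calls was lost when any muscle other than control replicate 3 was left out, with limma adjusted p of up to 0.108 for Galm and 0.106 for Slc16a7, while those of Slc37a4 and Pgam5 held whichever muscle was left out. Pgam5, a mitochondrial phosphatase of the mutase family, rose by 0.83 on the log2 scale. The median log2 fold change of these 21 genes was -0.08.

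Of 30 further glycogen genes (of 33 listed), 8 rose and 6 fell, shares of 26.7% and 20%. Prkag3, the gamma subunit of AMP-activated kinase found in glycolytic fibers, fell most, from 86.6, 83.6 and 86.8 FPKM in control to 8.72, 10.6 and 7.96 in C26 muscles, with a log2 fold change of -2.96 (SE 0.14, limma adjusted p = 0.000822). Gaa, the lysosomal glucosidase that degrades glycogen, rose from 56.7, 59.2 and 46.1 FPKM in control to 396, 417 and 157 in C26 muscles, with a log2 fold change of 2.67 (SE 0.37, limma adjusted p = 0.00549). The liver phosphorylase Pygl had 0.4, 0.33 and 0.42 FPKM in C26 and 7.58, 17.8 and 1.47 in control muscles (log2 fold change -2.65), and its control values varied widely. Its call was lost when any muscle other than control replicate 3 was left out (limma adjusted p of up to 0.114), whereas those of Prkag3, Gaa and Calm3 held in each case. Calm3, a calmodulin gene and thus a source of the delta subunit of phosphorylase kinase, fell, with a log2 fold change of -2.46 (SE 0.43, limma adjusted p = 0.00912). The median log2 fold change of the 30 genes was 0.13.

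The promoters of the gene that rose most and of the gene that fell most among those with a RefSeq window are shown first, because a motif is counted in them below. The 250 bases before the start of Ugp2 lie at chr11:21371268-21371517 on the minus strand and those of Bpgm at chr6:34476106-34476355 on the plus strand, both in GRCm38.p6. Capitals mark the hypoxia response element core ACGTG.
Ugp2: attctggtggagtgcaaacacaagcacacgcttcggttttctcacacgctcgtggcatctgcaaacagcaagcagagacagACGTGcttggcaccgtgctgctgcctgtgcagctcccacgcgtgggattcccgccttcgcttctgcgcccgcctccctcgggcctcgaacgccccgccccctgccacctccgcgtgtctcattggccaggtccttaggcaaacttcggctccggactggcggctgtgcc
Bpgm: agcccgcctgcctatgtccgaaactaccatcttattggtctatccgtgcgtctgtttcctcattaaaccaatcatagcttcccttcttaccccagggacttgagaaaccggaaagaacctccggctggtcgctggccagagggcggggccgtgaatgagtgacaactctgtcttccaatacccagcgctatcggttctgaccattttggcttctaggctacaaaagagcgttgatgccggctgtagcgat
The Ugp2 stretch shown holds the core and that of Bpgm does not. The table has a second start for Ugp2 whose 250 bases hold no core, and the start shown was picked because its stretch holds it. Gpd1, which fell more than Bpgm, has no window in the table used here. The same is true of Slc2a4.

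RefSeq windows from 250 bases before to 50 bases after each start were searched on both strands for 42 of the 44 genes. The core ACGTG occurred in at least 1 window of 25 of them (59.5%), beside 28.8% of the 10600 listed genes with a window and 21.8% of all 27025 genes of the table. It was found in 5 of 8 genes that rose and in 5 of 13 that fell. The E-box CACGTG, which contains that core, occurred in 8 of the 42 genes (19.0%), beside 11.6% of listed genes. It was in 4 of the 8 genes that rose, namely Fbp2, Slc16a1, Gyg and Ppp1r3c, and in 1 of the 13 that fell, Ldha, whose windows in the table lie at later starts, within the annotated gene. The FoxO core GTAAACA was in 1 of the 42 genes, Aldoc, and the glucocorticoid half-site AGAACA in 10 (23.8%), beside 3.13% and 14.9% of listed genes. Genes with several starts had several windows and so more chances of a match. A match says only that these letters are present. The stretches around the E-box that lie before the start, chosen after the values were seen, are given here in GRCm38.p6, with the E-box in capitals, for Fbp2 at chr13:62858412-62858467 (minus strand), Slc16a1 at chr3:104638439-104638494 (plus strand) and Ppp1r3c at chr19:36736678-36736733 (minus strand).
Fbp2: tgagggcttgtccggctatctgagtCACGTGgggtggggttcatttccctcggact
Slc16a1: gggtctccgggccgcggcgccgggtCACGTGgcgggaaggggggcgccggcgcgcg
Ppp1r3c: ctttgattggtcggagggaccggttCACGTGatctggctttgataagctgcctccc
The E-box began 42, 200 and 104 bases before the start, in that order, and in Gyg it lay 8 bases past the start.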

How the data were processed

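RNA of 3 C26 and 3 control gastrocnemius muscles was sequenced. The authors removed reads matching adaptors or rRNA and reads of poor quality, used bowtie2 to map 50-base single-end reads to GRCm38.p5, and obtained FPKM by RSEM, and the deposited FPKM are given to 2 decimals for 13363 genes, each above 0 in all samples. The submitters' processing notes list HISAT2 2.0.4, Bowtie2 2.2.5, RSEM 1.2.12 and mm9, so the sources differ on the genome build, and no coordinate of the values was used. Depth per sample is unknown, and precision rests on the spread between 3 muscles.

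Groups and replicate numbers came from the sample titles. Entrez gene IDs were matched to RefSeq symbols (GRCm38.p6) for 13327 genes and not for 36. FPKM were brought to the same total in each sample (TPM) and then divided by unweighted TMM factors (30% of log ratios and 5% of levels trimmed), and log2(TPM + 1) was compared with limma 3.58.1 under R 4.3.3 (empirical Bayes, two-sided, Benjamini-Hochberg adjustment over all genes). The fit was tested on simulated data. Ratios within a muscle used the deposited FPKM and a two-sided exact permutation test. Fragments of 50 bases were compared with GENCODE vM21 transcripts on the same strand. Figures were drawn with matplotlib 3.10.9.

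The members and gene lists were chosen with earlier results of these data known. Members called with a 2-fold change or more are given in every sample, and up to 4 called genes with the largest changes of each other list are named. The alternatives were a pseudocount of 0.1, only genes with a mean TPM of 1 or more, omission of TMM, the deposited FPKM without rescaling, quantile normalization, scaling without the 20 most abundant genes, an intensity trend, the replicate number as a block, 0.1 added to each FPKM in the ratios, and leaving out each muscle. The labels do not say that the samples of a group are separate animals, so p-values measure only the spread between these samples, which may be technical. Their extraction note names a human cell line, whereas the tissue label and the muscle genes are those of muscle. Protein sequences were not used here. Some genes of the other lists are not reported here by name.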

Additional observations from a re-analysis of the deposited data

How the results depend on the processing

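Of the 44 genes, 9 rose and 14 fell. With each muscle left out, counts ranged from 4 to 10 that rose and from 5 to 19 that fell. Under the other settings with all muscles, 7 to 9 rose and 8 to 18 fell, and 14 of the 23 calls held under each of them. Same-numbered muscles did not deviate together (correlations over genes of -0.04, -0.08 and -0.11), so the replicate numbers are only names. With the replicate block, 7 genes rose and 8 fell, and the calls of Slc2a4, Tpi1, Pgam1, Eno3, Pkm, Ldha, Gbe1 and Phka1 were lost. Gapdh turned from -0.25 to 0.61 on the log2 scale with quantile normalization, and the cause was not tested. The difference in log2 ratio of Eno1 to Eno3, 0.64 with all muscles, lay between -0.26 and 1.56 with each left out. Depth is unknown, so low genes such as Aldoc and Eno1 have an unknown counting error.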

Other observations

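The pentose phosphate pathway branches off glycolysis at glucose phosphate and makes NADPH and ribose. Of 11 genes analysed (of 13 listed), 6 fell and 0 rose, beside 14.5% and 19.4% of all genes, and their median log2 fold change was -0.77. G6pdx, the dehydrogenase of the first step, had 1.36, 1.70 and 1.36 FPKM in C26 and 9.15, 6.57 and 4.92 in control muscles, with a log2 fold change of -1.64 (SE 0.23, limma adjusted p = 0.00592). Tkt, the transketolase, had 5.11, 3.78 and 3.52 FPKM in C26 and 28.2, 67.3 and 16.2 in control muscles, with a log2 fold change of -2.57 (SE 0.53, limma adjusted p = 0.0147), and its control values were spread widely. Taldo1, the transaldolase, and Pgd, the dehydrogenase of phosphogluconate, fell with log2 fold changes of -1.06 and -0.91. The calls of G6pdx and Taldo1 held whichever muscle was left out. That of Tkt was lost without C26 replicate 1, C26 replicate 2 or control replicate 1 (limma adjusted p of up to 0.0518). That of Pgd was lost without any of these or control replicate 2 (up to 0.0778). Without C26 replicate 1, only G6pdx and Taldo1 of the 6 genes that fell were still called. The summed fat cell level in TPM was 493 to 701 in the C26 muscles and 794 to 6295 in the control muscles, and its part in these values was not tested.

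Of 16 genes of glucose transporter trafficking and glucose sensing, 2 rose and 2 fell, with a median log2 fold change of 0.0049. Mlxipl, the glucose-responsive factor ChREBP, had 13.5, 15.4 and 12.9 FPKM in C26 and 30.4, 28.4 and 21.2 in control muscles and fell (log2 fold change -0.69, limma adjusted p = 0.0383). Its partner Mlx had 11.9, 15.2 and 9.92 FPKM in C26 and 6.40, 6.28 and 10.6 in control muscles and rose (log2 fold change 0.85, limma adjusted p = 0.0259), although control replicate 3 lay within the C26 range on the FPKM scale. Vamp2, a vesicle fusion protein, rose by 0.74 on the log2 scale, and Arrdc4, an arrestin that is a target of ChREBP, fell with a log2 fold change of -0.57. None of these 4 calls held with every muscle left out in turn. The call of Vamp2 was lost without C26 replicate 1, C26 replicate 2 or control replicate 1, and that of Mlx without any of these or control replicate 2 (limma adjusted p of up to 0.0835 and 0.0916). With 1 muscle left out, Mlxipl was called only without control replicate 3 (up to 0.125 otherwise) and Arrdc4 only without C26 replicate 3 (up to 0.108 otherwise). Tbc1d1, a regulator of GLUT4 vesicles, had 1.32, 2.11 and 35.4 FPKM in C26 and 14.9, 9.59 and 10.7 in control muscles, so that C26 replicate 3 lay above all controls and the other C26 muscles below them. It was not called and was chosen after its values were seen.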
